A study of Mus musculus with 10 samples.

Results

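The p200 genes Ifi203, Mndal, Pyhin1, Ifi204, Ifi205, Mnda and Aim2 were examined in RNA-seq of mouse osteocytes. They were matched by gene name and are 7 of the 22548 genes in the table. Several of them had drawn attention because they were higher in mice with myeloma, so their group differences are given as a description, with no test. RNA was isolated from the bone of C57BL/6 mice, all male and 8 weeks old by the labels, with 1 library from each of 10 mice. The 5 MM mice (mice 6 to 10) bore myeloma after vk12598 cells, a murine myeloma line of the Vk*MYC model, had been injected into the femur. The 5 No MM mice (mice 1 to 5) were controls that received no myeloma cells. The cells came from serial collagenase and EDTA digestions of bone pieces after marrow removal, with no sorting step described, so other cells of bone and marrow may remain. In such bulk samples, fewer cells of a type and less RNA per cell cannot be told apart.

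The p200 proteins, also called PYHIN or HIN proteins, typically join a pyrin domain, through which proteins pair with one another, to a HIN domain, which binds double-stranded DNA. Their genes lie side by side on chromosome 1 in the mouse and are induced by interferon through promoter elements bound by STAT and IRF transcription factors. Aim2 detects DNA in the cytosol and assembles an inflammasome with Pycard and caspase-1, Ifi204 takes part in DNA sensing through Sting, and several members are abundant in cells of the myeloid and lymphoid lineages.

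Short stretches upstream of the genes show how alike the members are at their starts. RefSeq windows of 250 bases before to 50 bases after the gene start (build GRCm38.p6) were found for 12 of the 14 p200 genes in the table and for 6 of the 7 members. They were searched on both strands for GAAANNGAAA, the core of the interferon-stimulated response element. This motif stood in the windows of 9 of the 12 p200 genes, beside 3.99% of all 27025 genes with a window. By window, it stood in 10 of the 14 p200 windows and in 3.44% of all 32851 windows. The exact form GAAATCGAAA stood in 16 of all windows, or 0.0487%, and 7 of those 16 belonged to p200 genes. It was chosen as the commonest form among the p200 windows. The matches of 4 members and of 2 other p200 genes are printed with 10 flanking bases on each side, 5′ to 3′ on the strand named, with the motif in capitals. They are shown because Ifi203 and Mndal, the pair that stood apart in the values, carry the same letters, and because BC094916 and Pydc4, which are not members, carry the same core.
Ifi203 (minus strand, chr1:173942508-173942537): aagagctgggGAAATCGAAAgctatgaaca
Mndal (minus strand, chr1:173880204-173880233): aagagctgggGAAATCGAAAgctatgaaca
Mnda (minus strand, chr1:173913064-173913093): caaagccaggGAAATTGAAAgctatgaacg
Ifi205 (minus strand, chr1:174031870-174031899): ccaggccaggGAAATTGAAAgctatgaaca
BC094916 (minus strand, chr1:173536017-173536046): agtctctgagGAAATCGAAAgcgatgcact
Pydc4 (minus strand, chr1:173599326-173599355): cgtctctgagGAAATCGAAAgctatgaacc

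Over the aligned parts of the windows, Ifi203 and Mndal were identical at 282 of 289 bases (97.6%), and Mnda and Ifi205 at 189 of 201 (94.0%). Ifi203 and Mnda were identical at 66.4% of aligned bases. The match of Ifi203 lies 35 bases before its RefSeq start, inside an intron of a GENCODE transcript. That of Mndal lies 36 bases before its RefSeq start, in the UTR of 1 of 10 GENCODE transcripts. The Pyhin1 window did not hold the motif, although it was identical to that of BC094916 at 287 of 299 aligned bases (96.0%). No match was found in the Aim2 window, and Ifi204 had no window. A second motif, TTCNNNGAA, the site type of STAT dimers, stood in 8.3% of all windows and in 1 p200 window, that of Ifi202b. A further match on the opposite strand, in a window of Mndal and in one of Ifi205, is not printed. The matches of Gm4955, Pydc3 and AI607873 are not printed either. They have the exact form GAAATCGAAA too. The No MM and MM values of these genes overlapped, as did those of Mnda, Ifi205 and Pydc4, whose matches are printed. These matches describe letters in the windows and not bound sites.

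By the coordinates of the table, which fit build GRCm38, the members spread over chromosome 1 in the order Aim2 (plus strand, 173350879 to 173466040), Pyhin1 (plus, 173630859 to 173647928), Ifi204 (minus, 173747293 to 173766876), Mndal (minus, 173857220 to 173942491), Mnda (minus, 173896355 to 173912922), Ifi203 (minus, 173920407 to 173942672) and Ifi205 (minus, 174011998 to 174031755). In current nomenclature Pyhin1 is Ifi209 and Mnda is Ifi211. The spans of Ifi203 and Mndal overlap by 22085 bases on the same strand, but their exons in GENCODE M21 share only 37 bases. Those 37 bases come from 1 of the 10 Mndal transcripts and make up 0.552% of the exonic bases of Ifi203 and 1.02% of those of Mndal. Mnda lies entirely inside the Mndal span and shares 0 exonic bases with it.

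**Figure D1:**
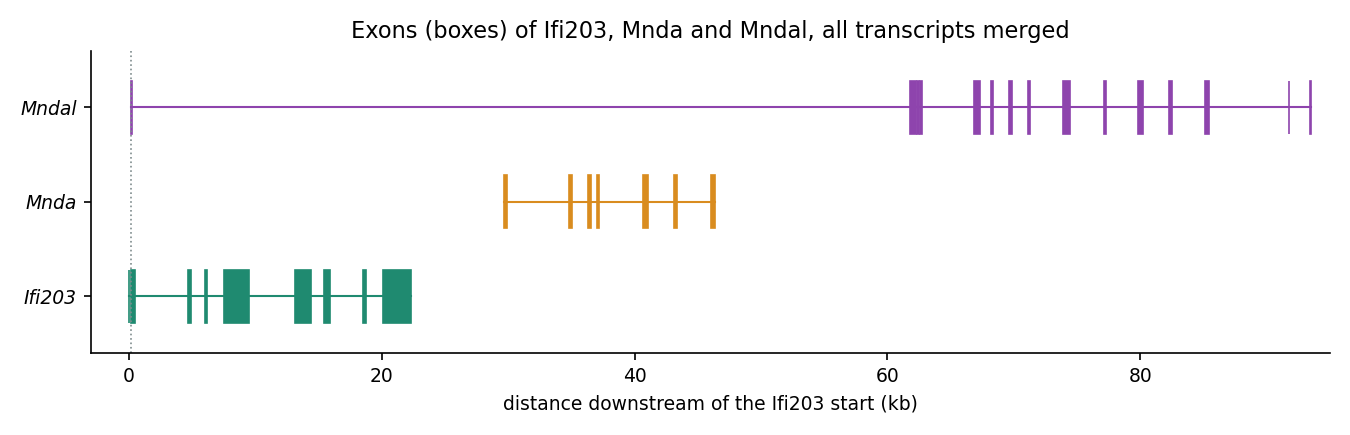
Exons (boxes, all GENCODE M21 transcripts merged) of Mndal, Mnda and Ifi203, drawn against the distance downstream of the Ifi203 start in kb, with all 3 genes read from left to right. A dotted line marks the 37 exonic bases that Ifi203 and Mndal share, at a first exon used by 1 Mndal transcript, while the other exons of the 3 genes lie apart.

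Similar exons can also divert reads between genes. All 76-base stretches of the GENCODE M21 transcripts, the length of a read, were compared among all genes. Of these stretches, 94.5% were unique to the gene for Ifi203 and 89.1% for Mndal. These 2 genes shared 1.83% of Ifi203 stretches and 3.37% of Mndal stretches. The unique share was 100% for Aim2, 86.9% for Ifi204, 83.4% for Ifi205 and 77.3% for Pyhin1. For Mnda it was 36.7%, since 40.5% of its stretches are also in Ifi205 and 22.8% in Ifi204. The counting program was not given in the sources used here, so Mnda counts and, to a smaller extent, Pyhin1 counts are uncertain. Pyhin1 shares 22.7% of its stretches with BC094916, and BC094916 shares 9.85% of its own with Pyhin1.

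Between 31099174 and 39466332 reads were counted per library, and 3 counts corresponded to 0.0709 to 0.114 CPM (counts scaled to a common library size by edgeR's TMM factors). Among the controls, No MM 3 and No MM 4 stood apart from all other libraries, with 26.56% (95% Wilson interval 26.55% to 26.57%) and 28.97% (28.96% to 28.99%) of their counts on immunoglobulin genes. The other 8 libraries had 0.637% to 3.86%. All 10 osteocyte markers listed, such as Dmp1 and Sost, were detected, with summed levels of 396 to 2945 CPM in No MM and 601 to 2529 CPM in MM. Neutrophil markers summed to 7093 to 32771 CPM in No MM and 10107 to 30619 CPM in MM, so hematopoietic RNA was plentiful in both groups. The low ends in No MM were those of No MM 3 and No MM 4, and the other 3 controls had at least 1243 CPM of osteocyte and 24990 CPM of neutrophil markers. Without both libraries the median log2 difference went from 0.08 to -0.48 for osteocyte and from 0.18 to -0.35 for neutrophil markers. Member values are therefore given with and without No MM 3 and No MM 4.

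Ifi203 and Mndal, both interferon-inducible p200 genes, were higher in every MM library than in any No MM library. Ifi203 was at 22.3, 35.2, 32.7, 25.7 and 45.6 CPM in No MM 1 to 5 and at 55.1, 71.5, 73.0, 57.8 and 52.7 CPM in MM 6 to 10. The highest No MM library, No MM 5, lay below the lowest MM library, MM 10. Mndal was at 19.2, 29.0, 30.9, 34.8 and 38.4 CPM in No MM and at 51.7, 58.1, 70.1, 50.2 and 47.3 CPM in MM. Here too the groups did not overlap, and for both genes No MM 1 was the lowest library and MM 8 the highest. The means were 32.3 ± 9.08 and 62.0 ± 9.51 CPM for Ifi203 (SD, n = 5 each), 1.92-fold higher in MM, and 30.5 ± 7.26 and 55.5 ± 9.06 CPM for Mndal, 1.82-fold higher. On the log2 scale of the edgeR fit, the differences were 0.94 (SE 0.205) for Ifi203 and 0.86 (SE 0.197) for Mndal, and without No MM 3 and No MM 4 they were 0.83 (SE 0.229) and 0.93 (SE 0.228).

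Across all 16186 genes tested, 0.729% had every MM library above every No MM library and 0.68% had every MM library below. Of the 7 members, all of which passed the filter on low counts, 2 were of the first kind and 0 of the second, and the groups overlapped for the other 5. Without No MM 3 and No MM 4, the same 2 members did not overlap, where 2.49% of 16600 tested genes were higher in this way. The fitted log2 difference was above 0 for 6 of 7 members and for 47.3% of all tested genes, and without both libraries for 7 of 7 members and 48.4% of genes. The median difference of the members was 0.76, or 0.78 without both libraries, beside -0.03 and -0.02 for all genes tested. Since the members were chosen on this contrast, nothing is read from these counts. The values just inside and just outside the separation of the groups were those of Ifi203, with 45.6 CPM in No MM 5 and 52.7 CPM in MM 10, and of Pyhin1, whose lowest MM library lay below 2 No MM libraries.

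**Figure D2:**
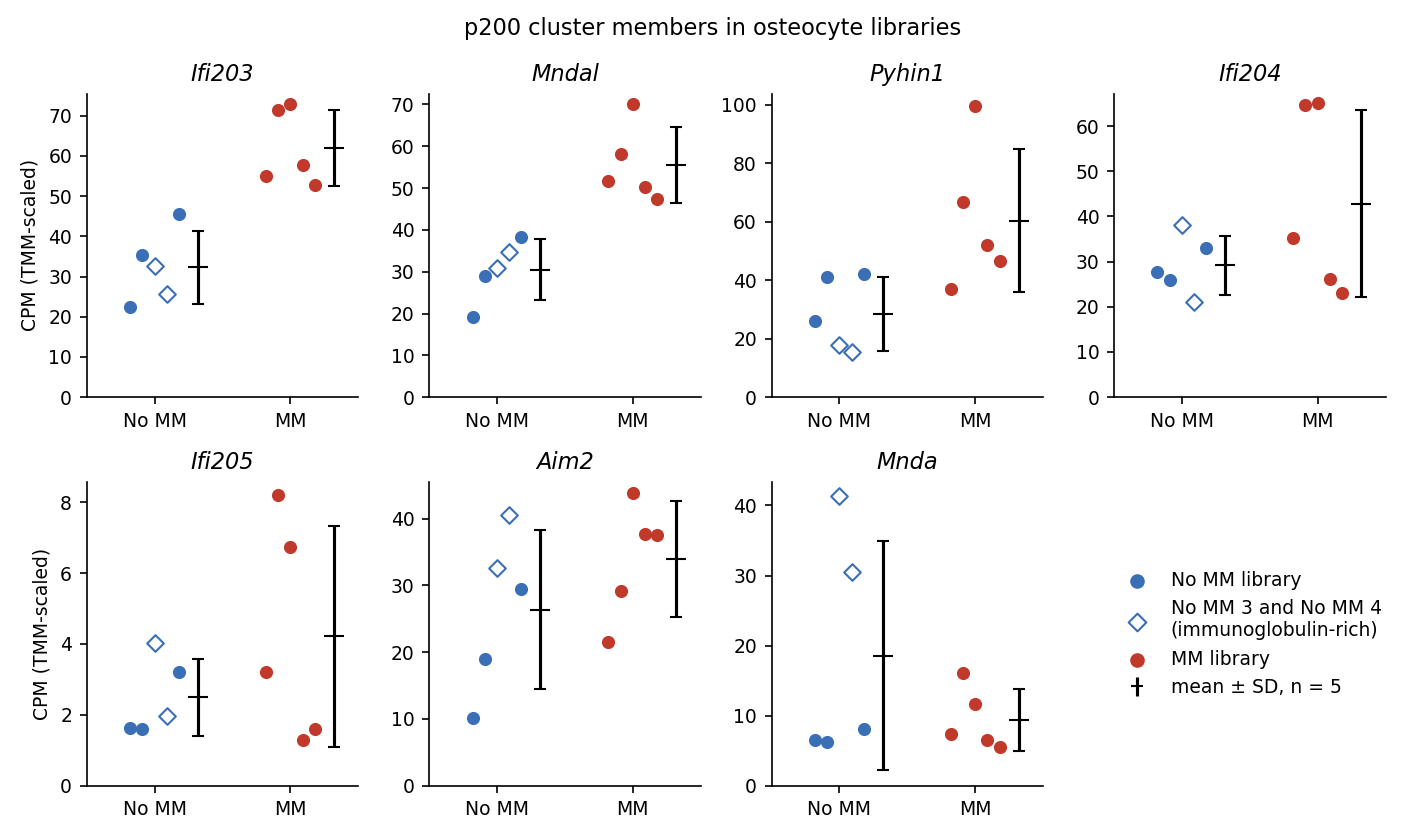
CPM of the 7 members in each library, 1 panel per gene with an axis from 0, 1 point per mouse, No MM in blue (open diamonds for No MM 3 and No MM 4) and MM in red, and the group mean with its SD over 5 mice as bars. The MM points of Ifi203 and Mndal lie above all of their No MM points, and Mnda has 2 No MM points, No MM 3 and No MM 4, far above the rest.

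Pyhin1 had the largest fitted log2 difference of the 7 members, but its groups overlapped. It was at 26.1, 41.0, 17.7, 15.6 and 42.2 CPM in No MM 1 to 5 and at 36.9, 66.9, 99.7, 52.1 and 46.6 CPM in MM 6 to 10. Only MM 6 fell within the No MM range, and No MM 3 and No MM 4 were the lowest of all libraries. The mean was 28.5 ± 12.6 CPM in No MM and 60.4 ± 24.5 CPM in MM, 2.12-fold higher, with a log2 difference of 1.08 (SE 0.349), or 0.71 (SE 0.317) without No MM 3 and No MM 4.

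Ifi204, a DNA sensor, and Ifi205 were high in MM 7 and MM 8 and near the No MM values in the other MM libraries. Ifi204 was at 27.7, 26.0, 38.1, 21.2 and 33.0 CPM in No MM and at 35.2, 64.8, 65.0, 26.1 and 23.1 CPM in MM. Ifi205, the least abundant member, was at 1.64, 1.60, 4.04, 1.96 and 3.21 CPM in No MM and at 3.21, 8.22, 6.73, 1.30 and 1.61 CPM in MM. For both genes, MM 9 and MM 10 lay inside or below the No MM range. The log2 differences were 0.55 (SE 0.317) for Ifi204 and 0.76 (SE 0.542) for Ifi205. Without No MM 3 and No MM 4 they were 0.55 (SE 0.366) and 0.95 (SE 0.647).

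Aim2, the inflammasome sensor, varied as widely among control mice as between groups. It was at 10.1, 18.9, 32.7, 40.6 and 29.5 CPM in No MM and at 21.4, 29.2, 43.8, 37.7 and 37.5 CPM in MM. No MM 4 was higher than all MM libraries except MM 8. The log2 difference was 0.36 (SE 0.339), and 0.78 (SE 0.341) without No MM 3 and No MM 4.

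Mnda, named after the human myeloid cell nuclear differentiation antigen, was the only member whose fitted difference was below 0. It was at 6.51, 6.17, 41.4, 30.5 and 8.16 CPM in No MM and at 7.35, 16.1, 11.7, 6.48 and 5.49 CPM in MM. The 2 high values were those of No MM 3 and No MM 4, and the other 8 libraries lay between 5.49 and 16.1 CPM. The log2 difference was -0.98 (SE 0.584) with all libraries and 0.42 (SE 0.366) without those 2, so its direction rested on them.

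**Figure D3:**
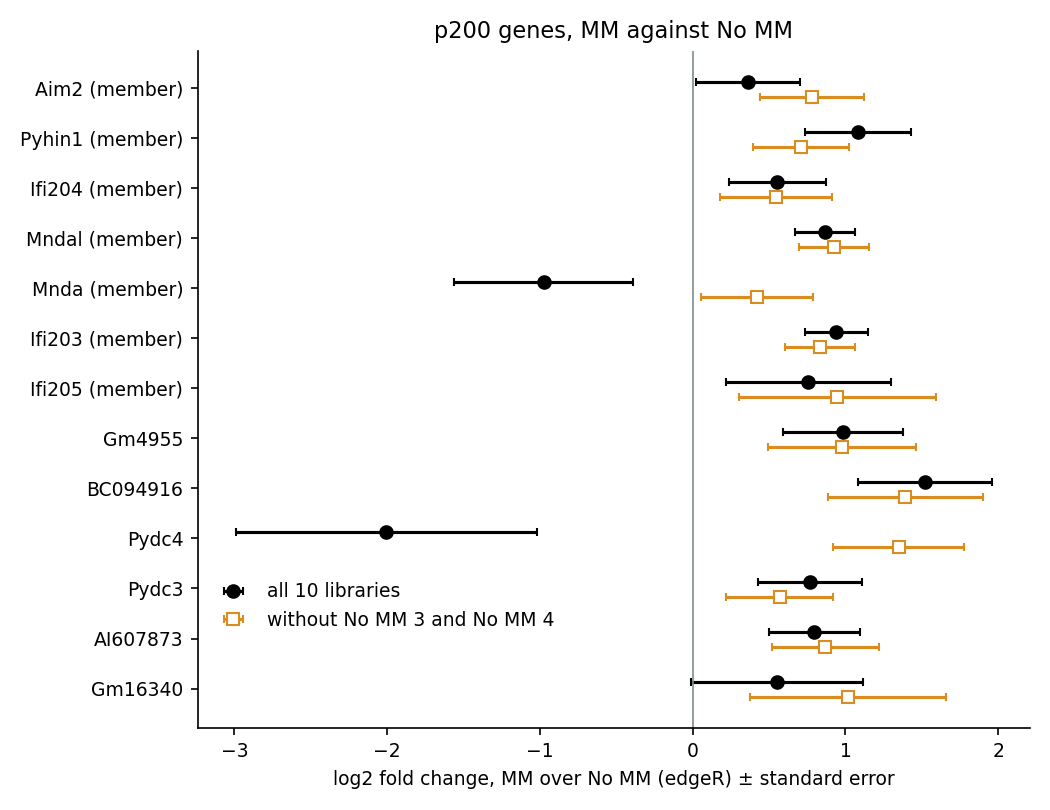
Fitted log2 difference, MM over No MM by edgeR, of the 7 members and the 6 other tested p200 genes, with the standard error as bars, over all 10 libraries (filled circles) and without No MM 3 and No MM 4 (open squares). Ifi203 moved from 0.94 to 0.83 and Mndal from 0.86 to 0.93, whereas Mnda and Pydc4 went from below 0 to above 0.

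The ratio of members within a library does not depend on its size. Mndal over Ifi203 was 0.813 to 0.960 in 9 of 10 libraries and 1.36 in No MM 4. Pyhin1 over Ifi203 was lowest in No MM 3 (0.542) and No MM 4 (0.607), while Aim2 over Ifi203 was highest in the same libraries (at parity in No MM 3 and 1.58 in No MM 4, beside 0.390 to 0.712 in the other 8). Mnda over Mndal ran from 0.116 to 1.34. It was highest in No MM 3 (1.34) and No MM 4 (0.877), beside 0.116 to 0.339 in the other 8. Ifi204 over Ifi203 (1.17 and 0.825) and Ifi205 over Ifi204 (0.106 and 0.0926) in these libraries lay within the range of the other 8, from 0.439 to 1.24 and from 0.0496 to 0.127.

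The table holds 7 other p200 genes of the cluster, and 6 passed the filter on low counts. By edgeR's quasi-likelihood test with Benjamini-Hochberg adjustment over all genes, 0 of the 6 passed, 4 had an unadjusted p under 0.05 and were higher in MM, and DESeq2 called 1. The 4 became 2 when No MM 2, No MM 4, No MM 5, MM 7 or MM 8 was left out alone. Across all tested genes, 3.81% were higher and 10.3% lower at an unadjusted p under 0.05, and edgeR called 0 genes after adjustment, whereas DESeq2 called 34 higher (0.229%) and 155 lower (1.04%). The median log2 difference of the 6 was 0.78. Without No MM 3 and No MM 4 it was 0.997, and 3 of the 6 were higher at an unadjusted p under 0.05, beside 2.51% of all genes.

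BC094916 (now Ifi214) was the one tested p200 gene outside the members whose groups did not overlap, where 0.729% of all tested genes were higher in this way. It was low, at 0.114, 0.563, 0.258, 0.544 and 0.784 CPM in No MM and at 1.24, 1.59, 1.32, 1.13 and 1.27 CPM in MM, from 3 to 32 counts against 41 to 59. Of the BC094916 stretches, 9.85% are also in Pyhin1, which had 429 to 4218 counts, so BC094916 counts are uncertain too. The log2 difference of BC094916 was 1.52 (SE 0.438, edgeR adjusted p = 0.315). Gm4955 (Ifi206) differed by 0.98 (adjusted p = 0.323), AI607873 (Ifi207) by 0.80 (adjusted p = 0.315) and Pydc3 (Ifi208) by 0.77 (adjusted p = 0.346), and the groups overlapped for each.

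Pydc4 (Ifi213) resembled Mnda. It was at 110.4 CPM in No MM 3 and 127 CPM in No MM 4 and at 2.93, 3.72 and 7.96 CPM in the other No MM libraries, with 15.3, 20.3, 9.76, 8.71 and 8.69 CPM in MM. Its log2 difference was -2.01 (edgeR adjusted p = 0.382) over all libraries and -1.32 without No MM 4 alone. Without No MM 3 and No MM 4 it was 1.35. Every MM library then lay above the 3 remaining No MM libraries, as for 2.49% of 16600 tested genes. The nearest values were 7.96 CPM in No MM 5 and 8.69 CPM in MM 10. Gm16340, the Ifi203 pseudogene, shares 3.70% of the Ifi203 stretches and differed by 0.55 (adjusted p = 0.666). Ifi202b had 0 to 32 counts and was not tested.

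**Figure D4:**
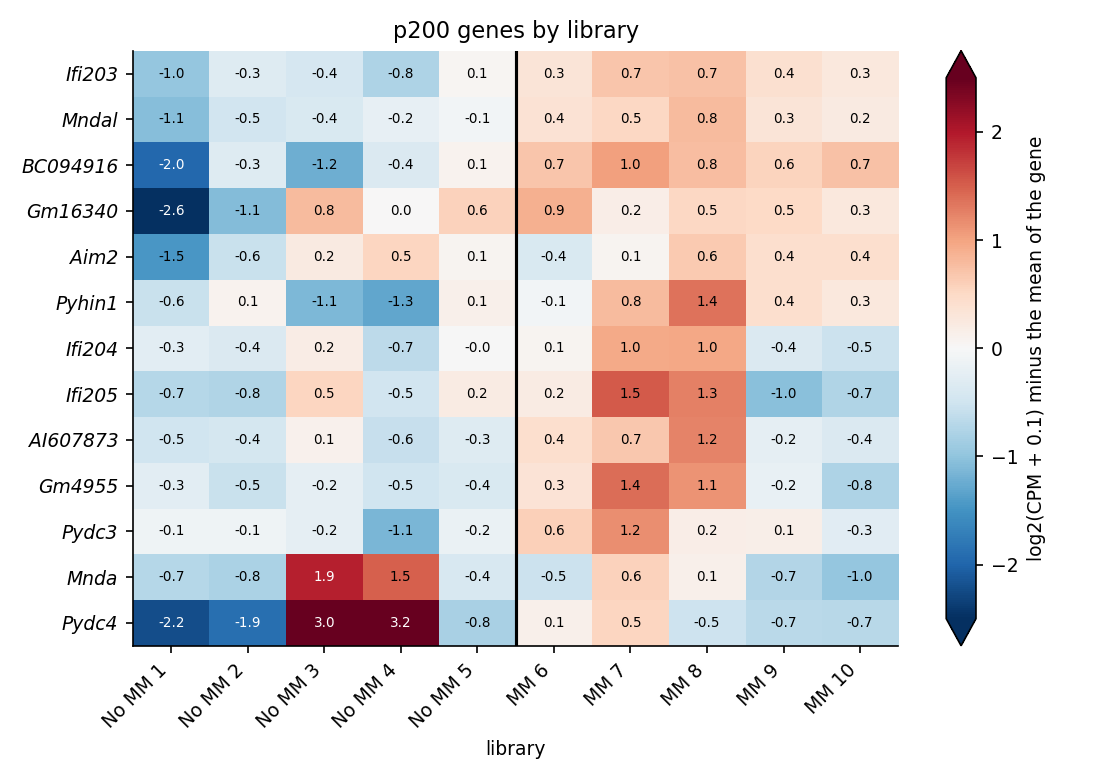
Heat map of the 7 members and 6 other tested p200 genes (rows) in the 10 libraries (columns), coloured and labelled by log2(CPM + 0.1) minus the mean of the gene, with a line between No MM and MM. Ifi203, Mndal and BC094916 are higher in all MM columns, Ifi204, Ifi205, Gm4955 and AI607873 are highest in MM 7 and MM 8, and Mnda and Pydc4 are highest in No MM 3 and No MM 4.

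Correlations of log2 CPM over the 10 libraries, which share the split into groups and both unusual libraries, described the same 3 patterns. Pearson's r was 0.93 (Spearman's rho 0.94) for Ifi203 with Mndal, and 0.76 after the group means were subtracted. It was 0.86 (rho 0.89) for Ifi203 with Pyhin1 and 0.90 (rho 0.93) for Ifi203 with BC094916. Ifi204 went with Ifi205 (r = 0.94, rho 0.81), Gm4955 (0.93, rho 0.84) and AI607873 (0.92, rho 0.88). Over all libraries, r for Mnda was 0.91 (rho 0.77) with Pydc4, -0.23 (rho -0.07) with Ifi203 and 0.24 (rho 0.48) with Ifi204. Without No MM 3 and No MM 4 it was 0.62, 0.59 and 0.96, so the pattern of Mnda rested on these libraries. Of the Mnda stretches, 22.8% are also in Ifi204, and the part of shared reads in the 0.96 was not tested.

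The levels of members can be compared with each other only per length. By CPM per kb of the gene length in the table, the order from the highest was Mndal (21.2 ± 7.55, SD, n = 10 libraries), Ifi204 (16.0 ± 7.15), Ifi203 (12.6 ± 4.78), Pyhin1 (12.7 ± 7.12), Aim2 (10.6 ± 3.74), Mnda (8.47 ± 7.44) and Ifi205 (2.08 ± 1.47), ranked by the mean of log2(CPM per kb + 0.1). The levels of 2 genes were compared within libraries by exact two-sided sign-flip permutation tests, adjusted by the Benjamini-Hochberg method over the 21 pairs, and 11 pairs differed at an adjusted p under 0.05. Mndal was above Ifi203, Pyhin1, Aim2 and Ifi205 in 10 of 10 libraries (exact p = 0.00195, the smallest this test can give, adjusted p = 0.00456). Before division by length, Mndal was below Ifi203 in every library except No MM 4. It was below Pyhin1 in No MM 1, No MM 2, No MM 5, MM 7, MM 8 and MM 9, and below Aim2 in No MM 3 and No MM 4. That Mndal was above Ifi203, Pyhin1 and Aim2 in every library therefore rests on the lengths used. These were 2026 bases for Mndal, 3754 for Ifi203, 3497 for Pyhin1 and 2839 for Aim2. These p-values measure the spread between mice and not the uncertainty of the lengths. Ifi205 was below every other member in 10 of 10 libraries, with the same p. Mndal and Ifi204 were above Mnda (exact permutation test, adjusted p = 0.0149 each).

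Neighbours in this order were mostly not separated beyond their spread. Adjusted exact permutation p-values were 0.0684 for Mndal and Ifi204, 0.0938 for Ifi204 and Ifi203, 0.572 for Ifi203 and Pyhin1 and for Pyhin1 and Aim2, and 0.111 for Aim2 and Mnda. Only Mnda and Ifi205 differed among the neighbours. Without No MM 3 and No MM 4, 17 of the 21 pairs differed. The levels of Mnda carry the uncertainty of its shared stretches.

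**Figure D5:**
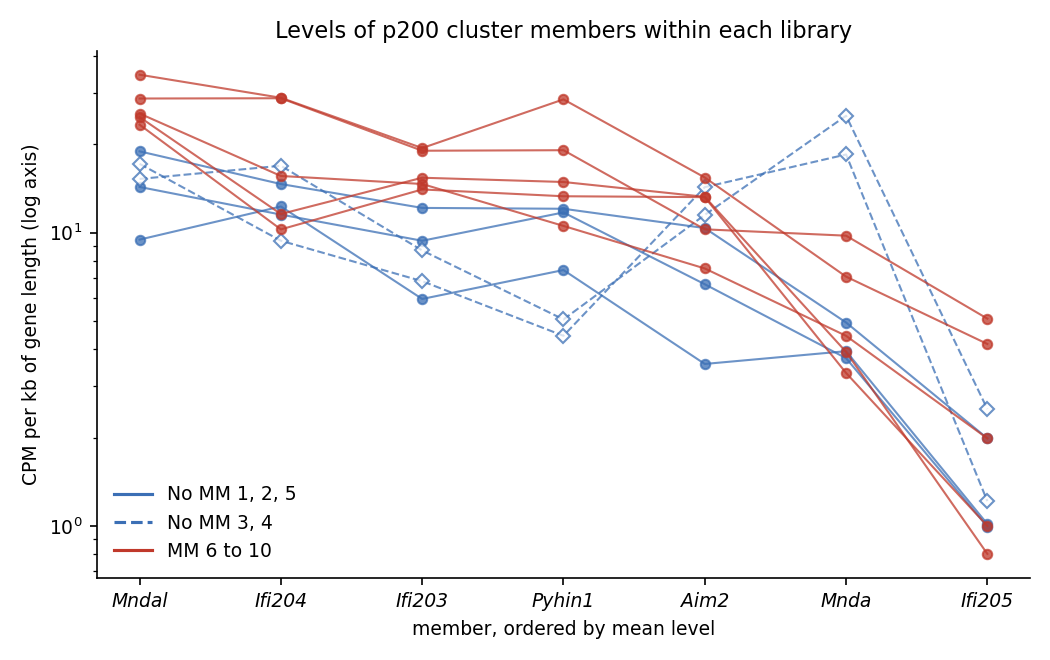
Level of each member per length, in CPM per kb on a log axis, with members in order of their mean and 1 line per library (blue for No MM, dashed for No MM 3 and No MM 4, red for MM). Mndal stands highest in most libraries and Ifi205 lowest in all 10, while Mnda is the highest member in No MM 3 and No MM 4.

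The genes whose pattern was most like that of Ifi203 and Mndal were searched among 16168 genes by Pearson's r of log2 CPM over the 10 libraries. For Ifi203 they were Mx1 (0.971), which encodes an interferon-induced antiviral GTPase, Trim34a (0.960), Rundc3b (0.958), Cacna1d (0.955) and Atxn1l (0.950). With group means subtracted, Mx1 was again the nearest (0.979), followed by Anapc10 (0.959), Homez (0.924), F830208F22Rik (0.923) and Cacna1d (0.919). For Mndal they included Naip5 (0.946), a sensor of bacterial flagellin, 9930111J21Rik1 (0.944), Alpk1 (0.944) and Tstd2 (0.943). With group means subtracted they were 5530601H04Rik (0.975), Patl1 (0.969), Alpk1 (0.944), Tmem81 (0.941) and Ado (0.940). These values of r, the highest among many genes over 10 libraries, are given as a ranking only.

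Interferon-stimulated genes outside the cluster passed no adjusted test. Of 25 tested, 0 passed by edgeR or DESeq2 after adjustment. The median log2 difference was 0.22 (0.24 without No MM 3 and No MM 4). The log2 difference was above 0 for 19 of the 25, beside 47.3% of all tested genes. At an unadjusted edgeR p under 0.05, 2 were higher in MM and 0 lower, beside 3.81% and 10.3% of all tested genes. The 2 became 1 without No MM 2, No MM 4, MM 7 or MM 8, 4 without MM 10 and 6 without MM 9. Mx1 had 6.17 ± 3.47 CPM in No MM and 14.2 ± 4.48 CPM in MM (log2 difference 1.20, SE 0.401, edgeR adjusted p = 0.315), and its groups overlapped. Mx2, a related GTPase, differed by 0.97 (adjusted p = 0.337), Oas2, which makes the oligoadenylates that activate RNase L, by 0.98 (adjusted p = 0.373), and Ifit1, which binds viral RNA, by 0.70 (adjusted p = 0.392).

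Upstream of these genes, 15 interferon receptors, kinases and transcription factors were tested, and 0 passed after adjustment by edgeR or DESeq2. At an unadjusted edgeR p under 0.05, 0 were higher and 0 lower, beside 3.81% and 10.3% of all tested genes. Without No MM 2, 1 was lower. The median log2 difference of the 15 was 0.27 (0.11 without No MM 3 and No MM 4), with 10 of 15 above 0, beside 47.3% of all tested genes. Stat2, a component of the interferon-activated complex ISGF3, differed by 0.40 (adjusted p = 0.430) and Irf8, a factor of monocyte and dendritic cell development, by 0.56 (adjusted p = 0.463), or 0.11 without No MM 3 and No MM 4. Socs1, an inhibitor of the pathway, differed by -1.01 (adjusted p = 0.405), by -0.15 without No MM 3 alone and by -0.13 without No MM 3 and No MM 4. Tyk2, a kinase of the interferon receptor, differed by -0.67 (adjusted p = 0.459), or 0.29 without No MM 3 and No MM 4.

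Among DNA sensing and inflammasome genes, 15 of 16 listed were tested. By edgeR and by DESeq2, 0 passed after adjustment. The log2 difference was above 0 for 11, beside 47.3% of all tested genes, with a median of 0.24 (0.29 without No MM 3 and No MM 4). At an unadjusted edgeR p under 0.05, 2 were higher and 0 lower, beside 3.81% and 10.3% of all tested genes. The 2 became 4 without No MM 5 or without MM 6. Nlrp3, an inflammasome sensor, had 7.80 ± 3.98 CPM in No MM and 16.3 ± 2.82 CPM in MM (log2 difference 1.06, SE 0.369, edgeR adjusted p = 0.315). Il1b, the cytokine that inflammasomes release in its active form, differed by 1.20 (SE 0.551, adjusted p = 0.358), by 1.92 without No MM 5 and by 0.72 without No MM 3 and No MM 4. Nlrc4, which assembles an inflammasome with Naip proteins, differed by 0.73 (adjusted p = 0.359). Zbp1, a sensor of Z-form nucleic acids, differed by -0.58 (adjusted p = 0.653), or 0.42 without No MM 3 and No MM 4. The groups overlapped for all 4 genes.

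Markers of several immune cell types varied beside the members. Of 8 dendritic cell markers, 8 had a log2 difference above 0, beside 47.3% of all tested genes. At an unadjusted edgeR p under 0.05, 2 were higher, beside 3.81% of all tested genes, which became 1 without No MM 1 or without No MM 3. After adjustment edgeR called 0 and DESeq2 called 1, where DESeq2 called 0.229% of all genes higher and 1.04% lower. Every MM library lay above every No MM library for 1 marker, beside 0.729% of all tested genes. The summed level of the 8 markers was 46.5 to 98.6 CPM in No MM and 88.2 to 179.5 CPM in MM. Their median log2 difference was 0.77 (0.54 without No MM 3 and No MM 4). Their part in the member values was not tested. MM 8, which had the highest Ifi203, Mndal, Pyhin1, Ifi204 and Aim2 of all libraries, also had the highest dendritic cell sum. Among MM libraries it also had the lowest osteocyte sum (601 CPM) and the highest monocyte and macrophage sum (2307 CPM). The dendritic cell sum was 58.2, 98.6, 46.5, 67.7 and 73.2 CPM in No MM 1 to 5. In MM 6 to 10 it was 98.5, 108.3, 179.5, 97.1 and 88.2 CPM. The Ifi203 values of the same libraries are given above, and their relation to these sums was not tested.

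The 8 plasma cell markers summed to 9472 CPM in No MM 3 and 9505 CPM in No MM 4, to 586 to 1109 CPM in the other No MM libraries and to 705 to 1276 CPM in MM. These are the libraries in which Mnda and Pydc4 were high, and the part of these cells in those values was not tested. All 8 were lower in MM at an unadjusted edgeR p under 0.05, beside 10.3% of all tested genes. Without No MM 3 and No MM 4, 1 of the 8 was, beside 3.37% of all tested genes. After adjustment edgeR called 0 of the 8 and DESeq2 called 4, where DESeq2 called 1.04% of all genes lower. B cell markers summed to 189 to 402 CPM in No MM and 230 to 518 CPM in MM, monocyte and macrophage markers to 804 to 2465 and 1149 to 2307 CPM, and T and NK cell markers to 57.2 to 175.5 and 110 to 201 CPM. In each of these 3 lists 1 marker was higher and 0 lower at an unadjusted edgeR p under 0.05, beside 3.81% and 10.3% of all tested genes. For monocytes and macrophages the 1 became 0 without No MM 1, No MM 3, No MM 4, MM 7 or MM 8, and for B cells and T and NK cells it became 2 without No MM 2. The low ends in No MM were again those of No MM 3 or No MM 4, and without both the median log2 difference went from 0.77 to 0.16 for B cell, from 0.25 to -0.06 for monocyte and macrophage and from 0.36 to 0.17 for T and NK cell markers. No marker of any list was at or under 3 counts in every library.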

How the data were processed

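Osteocyte RNA from 5 No MM and 5 MM mice was sequenced as stranded total RNA libraries (76-base paired ends). STAR and FastQC 0.11.5 are named in the submitters' processing notes, while the counting program, annotation and genome build were not given in the sources used here. Gene coordinates in the table shared a start or end with GENCODE M21 (GRCm38) for 10 of 14 p200 genes, and start and end for 3. The authors deposited read counts per gene as whole numbers without normalization, and only these were analyzed. They also deposited a normalized signal, for which each library's counts had been divided by its own size factor. The deposited FPKM values, relative to gene length and library total, were not used. The log2 fold changes and p-values that the authors deposited hold their own comparison and were not used.

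Samples were grouped by the disease state in the labels. In R 4.3.3, genes passing filterByExpr (16186) were scaled by TMM and tested with the quasi-likelihood test of edgeR 4.0.16, without covariates and with Benjamini-Hochberg adjustment over all of them. CPM used TMM library sizes. Member levels were divided by the gene length in the table and compared within libraries as log2(CPM per kb + 0.1) by exact sign-flip tests. Nothing in the labels says whether anything but the mouse separates the libraries, so p-values measure the spread between these mice. The intervals and detection limit (3 counts) reflect counting error alone, because molecules carried no identifiers and PCR copies were counted as reads. Totals per library ran from 31099174 to 39466332 counts.

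The members and the gene lists were chosen with earlier results of these data known. Named genes were the members, the other p200 genes, genes within 500 kb of the outermost members, the 5 genes most like Ifi203 and Mndal, and up to 4 genes per list with the largest absolute log2 difference. Of the genes this rule names, 2 are not reported here. Alternatives were DESeq2 1.42.0, RLE and upper quartile size factors, omission of the low-count filter, a minimum of 10 counts per library, immunoglobulin genes left out, a pseudocount of 0.01, each mouse left out in turn, and No MM 3 and No MM 4 left out together. The tests were checked on simulated counts of 16186 genes. With no change simulated, edgeR made 0 false calls and DESeq2 made 10. With 200 genes changed by 2 on the log2 scale, edgeR recovered 66% of them with 4 false calls. DESeq2 recovered 85% with 47 false calls, and the DESeq2 calls given here carry this limit. Smaller changes, such as those of the members, were not simulated, so the recovered shares do not apply to them. A shift common to No MM 3 and No MM 4 was not simulated either.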

Additional observations from a re-analysis of the deposited data

Results flagged for a closer look

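Each group of 5 libraries was tested by Dixon's rule for a library far from the rest, and 3 of 54 groups held one, where chance gives about 1 in 20, or 2.7. Pydc3 was at 1.67 CPM in No MM 4 and at 3.23 to 3.52 CPM in the other No MM libraries. Mndal over Ifi203 was 1.36 in No MM 4 and 0.823 to 0.947 in the other No MM libraries. The summed level of dendritic cell markers was 179.5 CPM in MM 8 and 88.2 to 108.3 CPM in the other MM libraries.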

How the results depend on the processing

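No paired analysis was possible because control mice carry numbers 1 to 5 and myeloma-bearing mice 6 to 10, and no number occurs in both groups. Genes called after adjustment numbered 0 in each direction by edgeR, and 0 with any 1 mouse left out. DESeq2 called 34 higher and 155 lower, and an unadjusted edgeR p under 0.05 gave 617 higher and 1664 lower. Without No MM 3 and No MM 4, Mnda went from -0.98 to 0.42, Zbp1 to 0.42, Tyk2 to 0.29 and Pydc4 from -2.01 to 1.35, and 17 pairs of member levels differed in place of 11 (11 to 14 with 1 mouse left out). The cause was not tested. Over all 18 settings, the log2 difference ran from 0.83 to 1.10 for Ifi203, 0.74 to 0.96 for Mndal, 0.71 to 1.27 for Pyhin1, 0.35 to 0.71 for Ifi204, 0.37 to 0.999 for Ifi205, 0.16 to 0.78 for Aim2 and -1.26 to 0.42 for Mnda. Low counts and stretches shared with Pyhin1 limit BC094916, and shared exon stretches limit Mnda.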

Other observations

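The table holds 12 further genes within 500 kb of the outermost members. Several are olfactory receptor genes with at most 11 counts in any library. Among those that were tested, the groups overlapped in every case. Fcer1a, the alpha chain of the high-affinity IgE receptor, differed by 0.49 on the log2 scale (SE 0.769, edgeR adjusted p = 0.791) and by -0.06 without No MM 3 and No MM 4. Ackr1, an atypical chemokine receptor, differed by -0.06 (SE 0.605, edgeR adjusted p = 0.974), and Cadm3, a cell adhesion gene, by -0.05 (SE 0.377, edgeR adjusted p = 0.966).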
